A study of Homo sapiens with 9 samples.

Results

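The ZBTB genes are those whose symbol on the array is ZBTB followed by a number and, for some, a letter. This naming rule gave 41 genes of the 19775 measured, carried by 99 of the 54613 probe sets. Each gene is described by its brightest probe set over the 9 arrays, and other probe sets are given where they were called and, for some genes, where they were not. The cells were Jurkat cells, named Clone E-6 in the series title, an established human line of leukaemic T lymphocytes. One group of 3 samples was exposed to 100 nanosecond electrical pulses (nsEP) of 10 ns at 150 kV/cm. A second group of 3 was heat shocked, and the last 3 samples were sham exposed. All RNA was taken 4 h after exposure. No group carried a genetic change or a second agent, and the heat shock served the study as a stress control. The labels call the samples of a group biological replicates, while the study's methods describe cells plated in triplicate after exposure, so the p-values measure only the spread between these samples.

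ZBTB proteins join an N-terminal BTB domain, through which they pair and recruit corepressors or the CUL3 ubiquitin ligase, to C-terminal zinc fingers of the C2H2 type that bind DNA. Most are known as repressors of transcription. In lymphocytes the family is best known for lineage decisions, with ZBTB7B directing the CD4 T cell fate and ZBTB16 the innate-like T cells, and ZBTB33, ZBTB4 and ZBTB38 bind methylated CpG sites.

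Values are log2 signals. A log2 ratio is the difference between group means of these, and a gene was called where limma gave an adjusted p under 0.05 over all probe sets. Of the 41 members, 22 lay in the brightest quartile of probe sets, 13 in the next, 4 below the median and 2, ZBTB7C and ZBTB32, in the dimmest quartile, where a signal cannot be told from background. The T cell label fitted its markers, since all 12 of the T cell genes examined lay in the brightest quartile. Their summed signal was 69555 to 97180 after nsEP, 66994 to 88015 after heat shock and 70955 to 76307 in sham, although CD2, CD28 and TRAT1 were called lower after heat shock. None of the 7 myeloid markers measured lay in the brightest quartile, but their summed signal was 344 to 470 after nsEP, 674 to 824 after heat shock and 378 to 486 in sham, with CD14 called higher after heat shock and in the dimmest quartile overall. The 4 B cell markers measured were called in no comparison, with summed signals of 680 to 891 after nsEP, 721 to 1015 after heat shock and 560 to 797 in sham. The part of these signals in the ZBTB results was not tested. Fewer cells that express a gene and less RNA of it per cell cannot be told apart in such bulk samples. The array of nsEP replicate 3 stood apart on the second principal component, at -173 where the other 8 lay between -30.6 and 62.6.

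RefSeq promoter windows were at hand for 35 of the 41 members, in 68 windows of 250 bases before a gene's start on GRCh38.p14. ZBTB6, ZBTB10, ZBTB16, ZBTB17, ZBTB40 and ZBTB41 were not among them. Shown first are 4 members that were lower after heat shock, and then ZBTB11, a bright member that was called in no comparison. Capitals mark matches on either strand to the letters CCAAT, to the GC box GGGCGG, to the ETS site CCGGAAG, to the E box CACGTG or to the cyclic AMP response element TGACGTCA, and no marked match overlaps another.
ZBTB42, chr14:104800851-104801100, plus strand: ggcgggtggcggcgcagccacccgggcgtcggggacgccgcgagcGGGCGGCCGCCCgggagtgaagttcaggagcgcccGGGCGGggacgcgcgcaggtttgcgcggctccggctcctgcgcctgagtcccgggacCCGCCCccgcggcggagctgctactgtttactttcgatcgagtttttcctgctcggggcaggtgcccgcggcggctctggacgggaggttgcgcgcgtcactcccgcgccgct
ZBTB26, chr9:122931513-122931762, minus strand: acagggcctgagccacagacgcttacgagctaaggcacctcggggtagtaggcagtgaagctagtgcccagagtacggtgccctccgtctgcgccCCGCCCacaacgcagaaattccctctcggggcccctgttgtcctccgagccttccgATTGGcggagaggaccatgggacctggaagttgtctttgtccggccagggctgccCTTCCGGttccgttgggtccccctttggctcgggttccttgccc
ZBTB9, chr6:33454326-33454575, plus strand: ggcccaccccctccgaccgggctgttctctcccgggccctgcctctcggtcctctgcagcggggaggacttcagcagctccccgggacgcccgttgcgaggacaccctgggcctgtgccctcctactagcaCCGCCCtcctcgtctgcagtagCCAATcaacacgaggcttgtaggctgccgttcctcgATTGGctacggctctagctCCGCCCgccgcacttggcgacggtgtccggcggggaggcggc
ZBTB33, chrX:120250562-120250811, plus strand: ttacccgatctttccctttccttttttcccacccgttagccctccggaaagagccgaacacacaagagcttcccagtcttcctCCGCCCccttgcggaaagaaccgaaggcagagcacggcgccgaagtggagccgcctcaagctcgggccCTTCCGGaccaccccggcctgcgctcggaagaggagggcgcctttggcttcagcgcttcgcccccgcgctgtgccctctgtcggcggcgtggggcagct
ZBTB11, chr3:101677133-101677382, minus strand: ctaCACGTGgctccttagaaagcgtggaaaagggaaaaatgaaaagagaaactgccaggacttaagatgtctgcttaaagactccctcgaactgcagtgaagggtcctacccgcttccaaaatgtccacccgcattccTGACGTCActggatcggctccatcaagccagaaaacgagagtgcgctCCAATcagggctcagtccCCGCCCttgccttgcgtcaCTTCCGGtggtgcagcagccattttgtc

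The member windows held a median of 62.8% G and C, beside 62% over all 21471 windows of measured genes. The median was 71.6% in the 10 windows of the 7 members lower after heat shock that had one. ZBTB14 and ZBTB26 had more than a single window among these 10. In the 58 windows of the other members the median was 60.8%. Single member windows ran from 31.2% to 91.6%. Windows were counted, not genes, and ZBTB38 and ZBTB20 had the most. Those of ZBTB20 held 32.4% to 56% and those of ZBTB38 35.2% to 80.4%, which weighs on the median of the other members. The GC box was found in 39 member windows, 57.4%, beside 54.0% of all windows, and the ZBTB42 window held 4 of them. The ETS letters were found in 12 member windows, 17.6%, beside 10.8% of all, ZBTB26, ZBTB33 and ZBTB11 among them. The CCAAT letters stood in 38.2% of member windows and 32.4% of all windows, CACGTG in 10.3% and 7.37%, and TGACGTCA in 2.94% and 2.09%. Paired GAA units of the kind heat shock factor binds were sought as GAANNTTC, found in 7.35% of member windows and 4.87% of all, and as TTCNNGAA, found in 10.3% and 5.86%. Neither was in the 5 windows printed, while a ZBTB14 window held GAANNTTC. ZBTB20 and ZBTB38 were among both the 4 member genes with GAANNTTC and the 5 with TTCNNGAA. The letters TCCTGCNA, a site that ZBTB33 binds without methylation, were in 5 member windows, 7.35%, beside 3.67% of all, and not in that of ZBTB33 itself. The letters TATAAA stood in 8.82% of member windows and 8.34% of all. A match is only a match of letters.

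After nsEP no ZBTB gene was called in either direction. Log2 ratios to sham ran between -0.68 in ZBTB42 and 0.39 in ZBTB20, and 38 of 41 were under 0.5 in size. At the brightest probe sets the smallest adjusted p of a member was 0.726. There limma had 0 members with even an unadjusted p under 0.05, beside 5.4% of all genes. Some other probe sets of members had one, as given below. The methods' t-test gave 3 members at an unadjusted p under 0.05, beside 4.97% of all genes. After adjustment it gave 0 members and 0 genes of any kind. Few genes of any kind were called, 0.0506% of all genes higher and 0.0101% lower. For 29 of the 41 the 95% interval of the ratio lay wholly inside 1 log2 unit on either side of 0. The interval's half-width, which is not adjusted for the number of probe sets, ran from 0.344 to 1.69. Smaller changes than these half-widths were not detectable with 3 arrays a group. Larger ones could also go uncalled, since a call needs an adjusted p under 0.05.

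**Figure D1:**
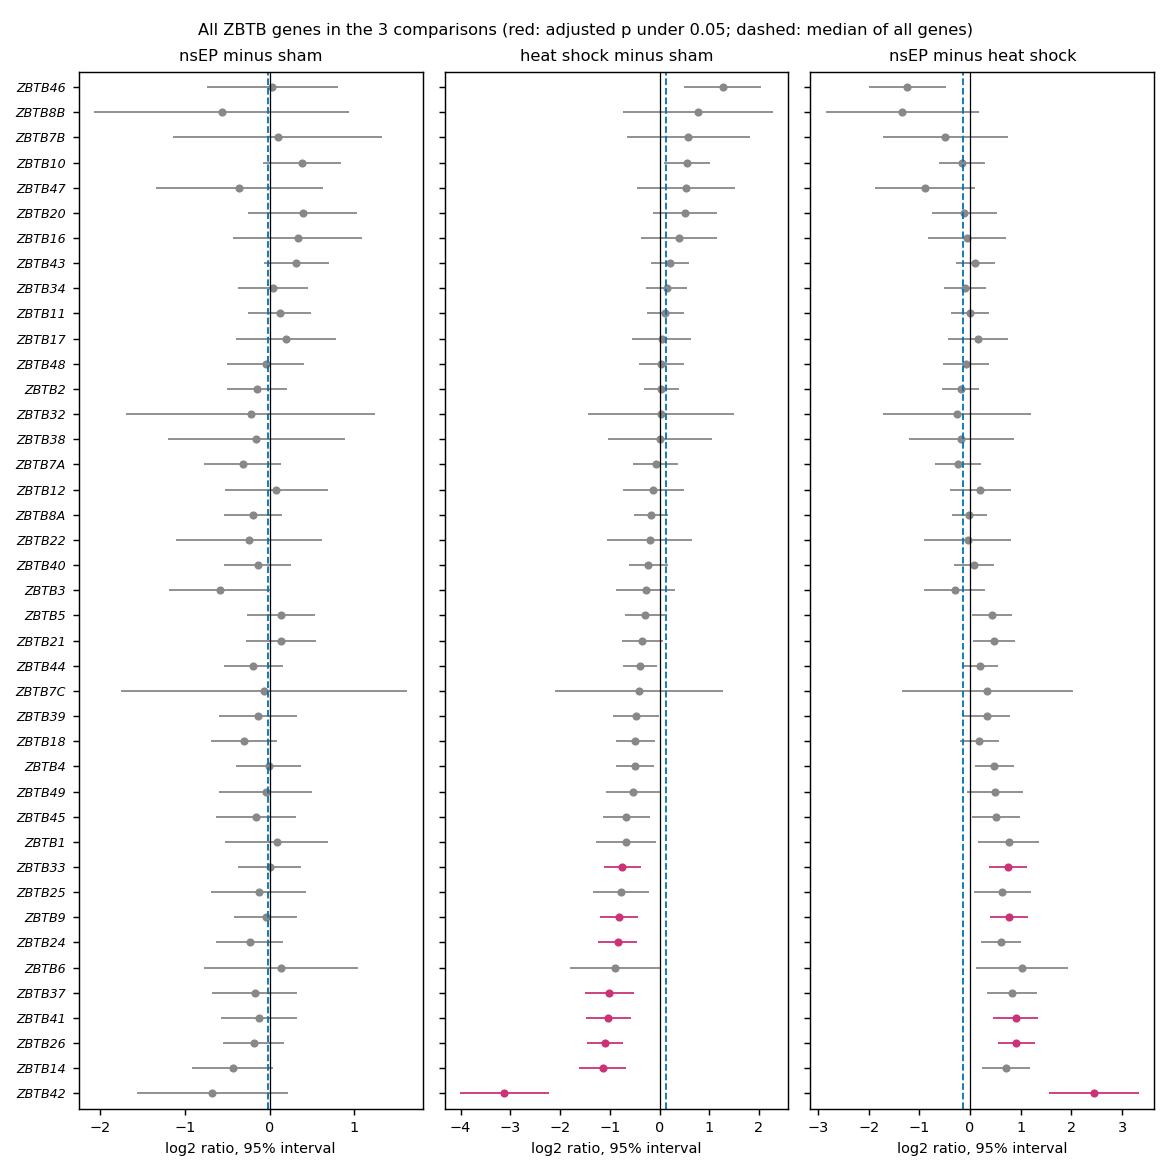
Log2 ratio of each of the 41 ZBTB genes, with its 95% interval, for nsEP minus sham, heat shock minus sham and nsEP minus heat shock, each panel on its own scale. Red marks an adjusted p under 0.05 and the dashed line is the median of all genes. The nsEP panel has no red point, and the heat shock panel has 8, all below 0.

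The median member ratio after nsEP was -0.129, beside -0.02 over all genes, and 27 of 41 members lay below 0. Without nsEP replicate 1 the median was 0.00088 and 20 members lay below 0, so no direction can be given to the family. The 3 nsEP arrays all lay below the 3 sham arrays for ZBTB3, ZBTB42 and ZBTB44, and all above them for ZBTB43. Such separation was also seen in 5.41% and 4.56% of all genes. ZBTB3 had log2 signals of 7.48, 6.88 and 7.37 after nsEP, against 7.96, 7.78 and 7.74 in sham (ratio -0.58, SE 0.28, adjusted p = 0.726). ZBTB43 had 9.43, 9.24 and 9.21 after nsEP, against 8.95, 8.94 and 9.06 in sham, with adjusted p = 0.793. These groups did not overlap, but the ratios did not pass the test.

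Heat shock gave a different picture. Of the 41 members 8 were called lower, 19.5%, where 3.99% of all genes were, and none was called higher, where 1.72% of all genes were. The genes called lower at their brightest probe set were ZBTB42, ZBTB14, ZBTB26, ZBTB41, ZBTB37, ZBTB24, ZBTB9 and ZBTB33. Other probe sets of ZBTB24 and ZBTB37 had ratios above 0, and one of ZBTB24 was called higher. With the mean of all probe sets of a gene in place of the brightest, 4 members were called lower, beside 2.44% of all genes. They were ZBTB42, ZBTB41 and ZBTB9, each with a single probe set, and ZBTB3. At an unadjusted p under 0.05 limma had 15 of the 41 members lower and 2 higher, beside 11.3% and 10.7% of all genes, and 16 members had all 3 heat shock arrays below all 3 sham arrays, against 13.7% of all genes. The median member ratio was -0.28 and that of all genes 0.14, a difference of -0.42. Because most members are bright and the dim probe sets as a whole were higher after heat shock, the members were also read beside genes of like brightness. In the brightest quartile 5 of 22 members were called lower, 22.7%, beside 9.08% of the genes there, and the medians were -0.37 for members and -0.05 for genes. There 10 of the 22 members had all 3 heat shock arrays below all 3 sham arrays, beside 27.2% of the genes. No p is given for these shares, since the members were chosen with earlier results of these data known.

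**Figure D2:**
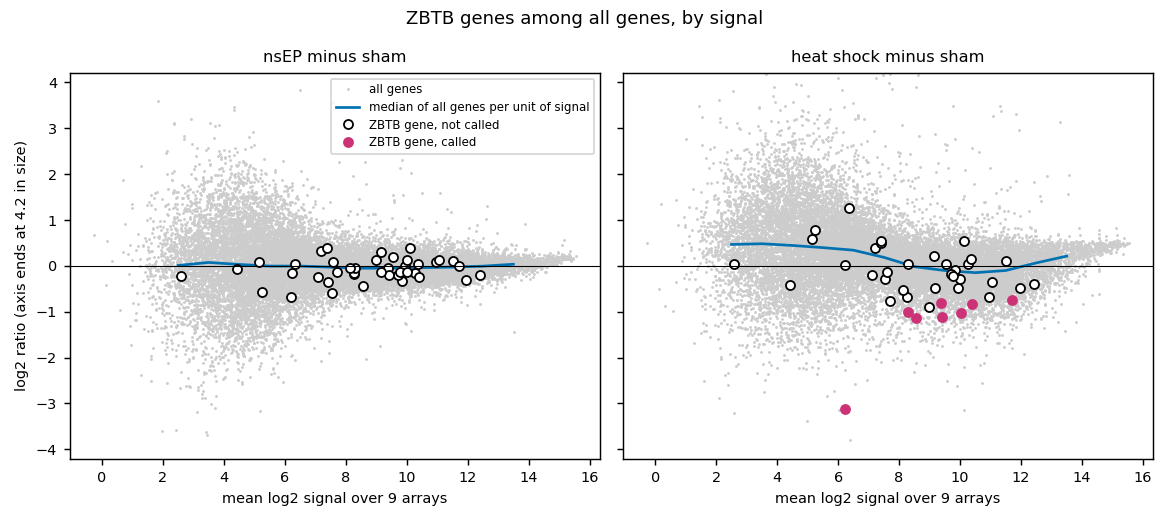
Log2 ratio to sham against the mean log2 signal over 9 arrays for nsEP and for heat shock, with all genes in grey, their median per unit of signal as a blue line and ZBTB genes as circles, filled where called. The 8 filled circles of the heat shock panel all lie below 0, and the median of all genes is above 0 for dim genes and close to 0 for bright ones.

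ZBTB42, a repressor akin to ZBTB18 and studied mainly in skeletal muscle, moved most. Its log2 signals were 6.83, 6.77 and 6.80 after nsEP, 3.82, 4.39 and 4.88 after heat shock and 7.56, 7.80 and 7.08 in sham. The ratio of heat shock to sham was -3.12 (SE 0.41, 95% interval -4.01 to -2.23, adjusted p = 0.000965). The 3 heat shock arrays lay far below the other 6, and no group overlapped another. After heat shock its mean fell in the dimmest quartile of probe sets, where the scatter on the log2 scale is wide and the size of a ratio is uncertain. With 32 signal units added to each value the ratio was -1.99. The nsEP arrays, all near 6.8, lay between the groups.

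ZBTB26, a little studied member, had log2 signals of 9.72, 9.77 and 9.48 after nsEP, 8.65, 8.91 and 8.67 after heat shock and 9.69, 9.95 and 9.90 in sham. After heat shock its log2 ratio to sham was -1.10 (SE 0.17, adjusted p = 0.00246), 2.15-fold lower than sham. The heat shock arrays were alike and all below the others, while nsEP and sham overlapped. ZBTB6, its neighbour on chromosome 9 with no coding gene between them in RefSeq, had 8.08, 8.52 and 8.47 after heat shock and 8.53, 9.94 and 9.26 in sham. Its ratio of -0.89 did not pass the test (adjusted p = 0.287). The other neighbouring pair on that chromosome, ZBTB43 and ZBTB34, had ratios of 0.21 and 0.14 after heat shock, with neither called.

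ZBTB14, also called ZF5 and first described as a repressor of MYC in the mouse, had log2 signals of 8.45, 8.98 and 8.49 after nsEP, 7.84, 7.90 and 8.04 after heat shock and 8.91, 9.42 and 8.90 in sham. The heat shock ratio was -1.15 (SE 0.22, adjusted p = 0.0114). ZBTB41 had 10.16, 10.62 and 10.04 after nsEP, 9.10, 9.51 and 9.52 after heat shock and 10.10, 10.66 and 10.45 in sham, a ratio of -1.03 (adjusted p = 0.0149). In both genes every heat shock array was lower than every other array, and nsEP overlapped sham. ZBTB37 had 8.42, 8.84 and 8.24 after nsEP, 7.53, 8.0 and 7.48 after heat shock and 8.79, 8.61 and 8.63 in sham, with a ratio of -1.01 (adjusted p = 0.0284). ZBTB9 had 9.59, 9.74 and 9.51 after nsEP, 8.84, 9.07 and 8.65 after heat shock and 9.59, 9.84 and 9.57 in sham, a ratio of -0.81 (adjusted p = 0.0199). For ZBTB9 the nsEP and sham arrays were nearly level and the heat shock arrays all lower.

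**Figure D3:**
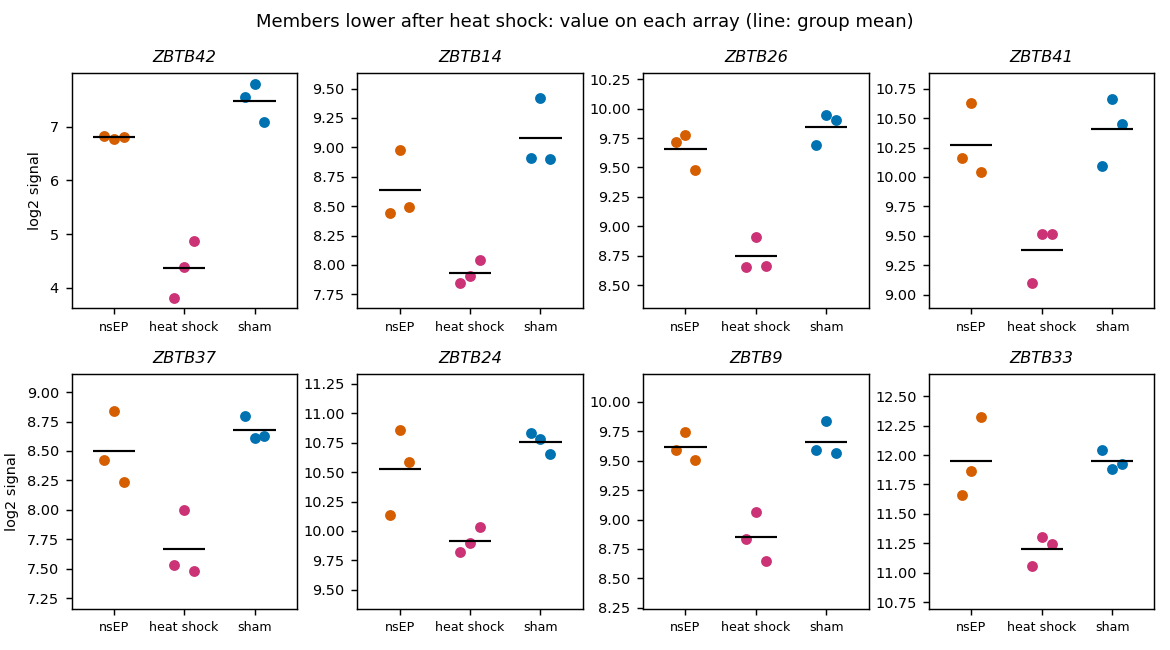
Log2 signal on each of the 9 arrays for the 8 members called lower after heat shock, with nsEP, heat shock and sham from left to right and a line at each group mean; axes differ between panels. The 3 heat shock points lie below the 6 others in all 8 panels, and nsEP and sham points overlap except in ZBTB42.

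ZBTB24 activates CDCA7 and is mutated in a syndrome of immunodeficiency with unstable centromeres. Its brightest probe set read 10.13, 10.86 and 10.59 after nsEP, 9.82, 9.90 and 10.03 after heat shock and 10.83, 10.78 and 10.66 in sham, a ratio of -0.84 (SE 0.18, adjusted p = 0.0213). A second ZBTB24 probe set went the other way. It read 9.08, 9.40 and 8.95 after heat shock against 7.83, 7.68 and 8.0 in sham, a ratio of 1.3 (adjusted p = 0.0356), so both were called in opposite directions and the gene has no single direction here. The remaining ZBTB24 probe set read 7.54, 7.53 and 7.49 after heat shock against 6.96, 7.41 and 6.84 in sham. Its ratio of 0.45 was also above 0 but was not called (adjusted p = 0.39). CDCA7 itself had a heat shock ratio of 0.11 (adjusted p = 0.755).

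Among the methyl-CpG binders ZBTB33, known as Kaiso and a partner of p120 catenin, was the one called. It had 11.66, 11.86 and 12.33 after nsEP, 11.06, 11.30 and 11.25 after heat shock and 12.05, 11.88 and 11.92 in sham, with a heat shock ratio of -0.75 (SE 0.17, adjusted p = 0.0303). All heat shock arrays were lower than the others. ZBTB4 had 9.41, 9.83 and 9.60 after heat shock against 10.26, 10.04 and 10.02 in sham, which did not overlap but missed the threshold (ratio -0.49, adjusted p = 0.157). ZBTB38 had a ratio of 0.01, with a 95% interval of -1.03 to 1.05 that leaves room for a change either way. Whether these 3 genes differ in response was not tested.

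Of the 10 regulators of lymphocytes or other blood cells, ZBTB24 alone was called after heat shock, and none was after nsEP. ZBTB1, needed for lymphocyte development in the mouse, had 11.35, 11.78 and 10.56 after nsEP, 10.32, 10.74 and 10.35 after heat shock and 10.71, 11.43 and 11.30 in sham, and its heat shock ratio of -0.68 had adjusted p = 0.22. ZBTB25 had 7.69, 7.15 and 6.91 after heat shock against 8.04, 7.97 and 8.05 in sham, with adjusted p = 0.131. The heat shock arrays of ZBTB25 were all lower than sham, and those of ZBTB1 overlapped it. ZBTB7A, a repressor of fetal globin genes, had a heat shock ratio of -0.08, ZBTB17 (MIZ-1, a partner of MYC) one of 0.04 and ZBTB20, a repressor of AFP in liver, one of 0.50, and adjusted p was between 0.404 and 0.957. ZBTB16 had 7.52, 7.41 and 7.13 after heat shock against 6.21, 7.56 and 7.11 in sham, with overlap. ZBTB7B and ZBTB32, a repressor of GATA3, were dim, at 4.82 to 6.29 and 1.96 to 3.31 after heat shock and 4.61 to 5.39 and 2.20 to 3.10 in sham, and their ratios carry little information.

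ZBTB46, a marker of classical dendritic cells, was the member with the highest heat shock ratio. It had 5.92, 5.95 and 5.94 after nsEP, 7.23, 7.0 and 7.30 after heat shock and 5.97, 6.17 and 5.58 in sham. The ratio was 1.27 (SE 0.35, adjusted p = 0.0697) and did not pass the test, though all heat shock arrays lay above all others. ZBTB10, which binds variant telomere repeats, had 10.18, 10.29 and 10.59 after heat shock against 9.84, 10.12 and 9.46 in sham, a ratio of 0.55 with adjusted p = 0.185. The other telomere repeat binder, ZBTB48, had a ratio of 0.04. The 4 members tied to the cell cycle inhibitor CDKN1A, namely ZBTB2 and ZBTB5 as repressors, ZBTB49 as an activator and ZBTB17, had heat shock ratios of 0.04, -0.30, -0.53 and 0.04, with none called. CDKN1A itself had 8.68, 8.70 and 8.40 after heat shock against 4.57, 7.02 and 7.50 in sham, a ratio of 2.23 with adjusted p = 0.051. Its sham replicate 1 was far below the other sham arrays.

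The bright members ZBTB44, ZBTB18, ZBTB11 and ZBTB21 had heat shock ratios of -0.39, -0.49, 0.11 and -0.35, with adjusted p between 0.166 and 0.781. ZBTB11, whose window is printed above, had 11.39, 11.59 and 11.68 after heat shock against 11.34, 11.66 and 11.33 in sham, with a 95% interval of -0.26 to 0.48. Its groups overlapped at this probe set, and the interval leaves out a fall of the size seen in the called members. The remaining members had heat shock ratios between -0.67 in ZBTB45 and 0.77 in ZBTB8B, and none was called.

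The other probe sets of the family were called in 3 cases after heat shock, ZBTB24 above and a further pair. ZBTB44 at its second probe set read 11.20, 11.61 and 11.38 after heat shock against 12.28, 12.30 and 12.32 in sham, a ratio of -0.90 (adjusted p = 0.00804), where its brightest had -0.39. ZBTB3 at its second read 5.01, 4.50 and 7.0 after heat shock against 8.44, 7.95 and 7.83 in sham, a ratio of -2.57 (adjusted p = 0.0151), where its brightest had -0.28. Heat shock replicate 3 was far above the other heat shock arrays there. For called members the other probe sets are dimmer by the choice of the brightest. Apart from the called ZBTB24 probe set above they were not called. The ratios of those not called were -0.21 in ZBTB14, -0.96 in ZBTB26 and -0.17 in ZBTB33. In ZBTB24 the ratio was 0.45 and in ZBTB37 the ratios were 1.27 and 0.50, which run against the brightest of each gene. ZBTB42, ZBTB41 and ZBTB9 had a single probe set, so no other probe set bears on them. The mean over the probe sets of a gene was not called in the other 5 of the 8, with ratios of -0.68 in ZBTB14, -1.03 in ZBTB26, -0.46 in ZBTB33, 0.30 in ZBTB24 and 0.26 in ZBTB37 and adjusted p between 0.0707 and 0.703. Of the 99 ZBTB probe sets 10 were called lower and 1 higher after heat shock, 10.1% and 1.01%, beside 2.36% and 1.81% of all 54613 probe sets, and none after nsEP. Some probe sets that were not called also differed from the brightest after heat shock. One of ZBTB43 had a ratio of -0.97 (adjusted p = 0.0646), where its brightest had 0.21, and a pair of dim ones of ZBTB7A had 1.48 and 1.66 (adjusted p = 0.058 and 0.126), where its brightest had -0.08. After nsEP single probe sets of ZBTB11, ZBTB24 and ZBTB37 had ratios of 1.29, 1.01 and 1.44 and none was called, where the brightest had 0.12, -0.23 and -0.18. The nearest after nsEP was another probe set of ZBTB10, with 10.32, 10.69 and 9.63 after nsEP against 8.60, 8.81 and 8.57 in sham, a ratio of 1.55 (adjusted p = 0.0717). Further ZBTB10 probe sets had 1.21 and 0.85 (adjusted p = 0.216 and 0.708), its brightest had 0.38, and dimmer ones had 0.05, -0.50 and -0.13. Another probe set of ZBTB21 had 0.56 (adjusted p = 0.568) and one of ZBTB1 had -0.79 (adjusted p = 0.678). By limma those with 1.55, 1.21, 0.85, 0.56 and -0.79 had an unadjusted p under 0.05.

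**Figure D4:**
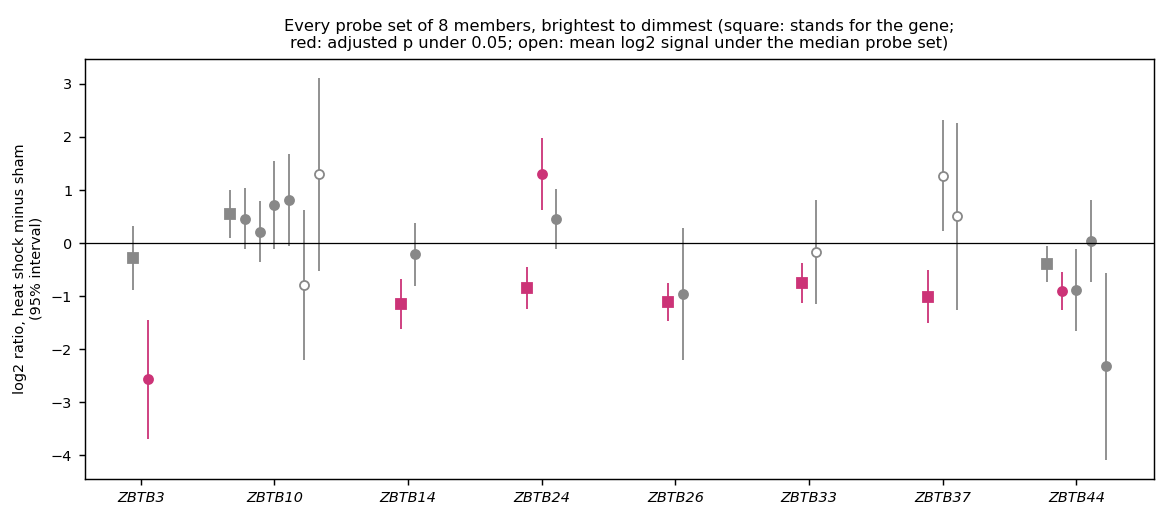
Log2 ratio of heat shock to sham with its 95% interval for each probe set of 8 ZBTB genes, ordered from brightest to dimmest within a gene; squares stand for the gene, red marks an adjusted p under 0.05 and open symbols lie under the median signal of all probe sets. ZBTB24 has red symbols on both sides of 0, and ZBTB3 and ZBTB44 are red only at a probe set that does not stand for the gene.

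Set directly against heat shock, nsEP samples had 5 members called higher, 12.2%, where 3.83% of all genes were, and 0 lower, where 2.16% were. They were ZBTB42 (log2 ratio 2.44, adjusted p = 0.00449), ZBTB26 (0.91, adjusted p = 0.00728), ZBTB41 (0.90, adjusted p = 0.0268), ZBTB9 (0.76, adjusted p = 0.0242) and ZBTB33 (0.75, adjusted p = 0.0271). All 5 were also among the 8 lower in heat shock than in sham, and the comparisons share the heat shock arrays. For ZBTB14, ZBTB24 and ZBTB37 the nsEP arrays likewise all lay above the heat shock arrays, with ratios of 0.71, 0.61 and 0.83 and adjusted p of 0.0927, 0.0802 and 0.0604. At an unadjusted p under 0.05 limma had 15 of the 41 members higher and 1 lower, beside 10.1% and 10.8% of all genes. The lower one was ZBTB46 (ratio -1.23, adjusted p = 0.0688). The median member ratio was 0.18 and that of all genes -0.14. In the brightest quartile 4 of 22 members were called higher, 18.2%, beside 8.64% of the genes there. Further probe sets of ZBTB3, ZBTB10, ZBTB21, ZBTB38 and ZBTB44 were called higher too, with ratios of 2.83, 1.34, 0.74, 2.85 and 0.73, which made 10 genes with a called probe set out of 41, beside 5.01% of all genes. That of ZBTB38 lay in the dimmest quartile.

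Relatives and partners of the family moved in single genes. Of 7 BTB zinc finger genes with other symbols, BCL6, the germinal centre repressor, had 7.76, 7.62 and 7.81 after nsEP, 9.34, 9.34 and 9.07 after heat shock and 7.90, 7.25 and 7.0 in sham. It rose after heat shock (ratio 1.87, adjusted p = 0.00109), against the direction of the called ZBTB genes. MYNN had 10.70, 11.09 and 10.77 after nsEP, 9.64, 9.31 and 9.51 after heat shock and 10.20, 10.28 and 10.40 in sham, and it fell after heat shock (ratio -0.80, adjusted p = 0.0144). The other 5 were not called, and none of the 7 was after nsEP. Of 21 corepressors and CUL3 partners, 20 of them in the brightest quartile, KEAP1 alone was called. KEAP1, the CUL3 adaptor that marks NRF2 for breakdown, had 9.96, 9.66 and 10.09 after heat shock against 11.57, 11.40 and 11.16 in sham (ratio -1.47, adjusted p = 0.000936). CUL3 had a ratio of -0.02 and HDAC1 one of 0.25, and the median of the list was 0.09 beside 0.14 over all genes. Of 12 genes known as targets of members, 0 were called by limma in any comparison, and at an unadjusted p under 0.05 it had 2, CDKN1A and AFP, both higher after heat shock than in sham and lower after nsEP than after heat shock.

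The size of the fall after heat shock depends on how arrays are scaled, since each was scaled by the authors to a common mean. The median of all genes after heat shock was 0.14 as deposited, 0.0011 once arrays were quantile normalized, -0.17 once each was centred on its own median and -0.82 once the poly-A spike-ins set the scale. The median of the 41 members was below 0 in each, at -0.28, -0.39, -0.59 and -1.23. Over all genes 340 were called higher and 789 lower as deposited, 235 and 2199 after centring and 71 and 2491 with the spike-ins. The members called lower numbered 8 as deposited, 14 after centring and 16 with the spike-ins, each count holding the same 8, where the share of all genes called lower was 3.99%, 11.1% and 12.6%. The count also fell when single arrays were left out. It was 2 without heat shock replicate 1 or without sham replicate 2, where 2.10% and 1.92% of all genes were called lower. It was 4 without heat shock replicate 3 or either of sham replicates 1 and 3, where 2.36%, 2.15% and 2.40% of all genes were. ZBTB42 and ZBTB26 kept their call with any of the 9 arrays left out, while ZBTB24 and ZBTB33 lost theirs with each of the 6 heat shock and sham arrays.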

How the data were processed

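Total RNA of 9 Jurkat samples (3 nsEP, 3 heat shock, 3 sham) was hybridised to Affymetrix human expression arrays of 54675 probe sets. The authors made MAS5 signals, named in the submitters' processing notes, and deposited their log2 values; with the lowest and highest 2% left out, the mean signal was 500.1 on each array. No filter on detection was applied to the deposited values, and the number of arrays limits the precision. After 62 control probe sets were set aside, 54613 were tested. Symbols came from the platform table, where 41091 probe sets had 1 symbol, 1801 several and 11721 none, and all 41 member symbols were still current. The 9 arrays were fitted together in limma 3.58.1 under R 4.3.3 (lmFit, eBayes with trend, two-sided), with p-values adjusted by Benjamini-Hochberg over all probe sets. A simulation was required only to return median ratios close to planted changes, and this requirement did not cover the p-values. The planted changes were larger than the heat shock ratios of all called members except ZBTB42. With 3 arrays against 3 an exact permutation test cannot go below p = 0.1, so none was run.

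The members, lists and rules were chosen with earlier results of these data known. Members called in any comparison were described per array, with the 6 of highest mean signal and 13 regulators of blood cells, methyl-CpG or telomere repeats named whatever their values; other members and probe sets named were chosen after their values were seen. Alternatives were a filter on dim probe sets, 32 signal units added, quantile normalization, median centring, scaling to spike-ins, no trend, only the 6 arrays compared, array weights, a replicate block, each array left out, every probe set of a gene, and the methods' t-test at a log2 ratio of 2 and p of 0.05, taken as unadjusted. Promoter windows are RefSeq sequence of GRCh38.p14, cut to the 250 bases before the start.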

Additional observations from a re-analysis of the deposited data

How the results depend on the processing

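In the heat shock comparison the 8 members called lower became 14 with arrays centred on their medians, 16 with spike-in scaling, 15 with spike-in scaling without the Trpn probe sets (chosen after seeing the data), 2 with no trend in the prior variance, 1 by the methods' t-test at the study's thresholds and 0 by that test after Benjamini-Hochberg adjustment. Leaving out 1 array at a time gave 2 to 8, where 1.92% to 5.29% of all genes were called lower. The count of members called higher, 0, became 1 with dim probe sets left out, with no trend and with array weights, each time ZBTB46, and 1 with any probe set of a gene counted, ZBTB24. For nsEP against heat shock, the 5 members called higher became 14 with centring, 12 with spike-in scaling, 1 with no trend, 3 with only the 6 arrays compared, 10 with any probe set counted, and 1 and 0 by the t-test at the study's thresholds and after adjustment. Leaving out 1 array gave 2 to 8, with 2 without nsEP replicate 2, heat shock replicate 1 or heat shock replicate 3, 3 without heat shock replicate 2 and 8 without nsEP replicate 3. In the order of these arrays, 1.92%, 2.27%, 2.14%, 2.57% and 4.87% of all genes were called higher. The count called lower, 0, became 1 without dim probe sets and without the trend, ZBTB46 both times. Calling the mean of all probe sets of a gene (also chosen after seeing the data) gave 4 members lower after heat shock, 3 of them among the 8, and 4 higher in nsEP than in heat shock, all among the 5. The share of all genes called lower after heat shock was 3.99% as deposited, 11.1% with centring, 12.6% with spike-in scaling and 0.845% with no trend. The share higher in nsEP than in heat shock was 3.83%, 10.5%, 8.68% and 0.86% in the same order. By the t-test 0.202% of all genes were lower after heat shock at the study's thresholds and 0.521% after adjustment. The shares higher in nsEP than in heat shock were 0.233% and 0.137%. With the mean of all probe sets of a gene, the heat shock ratios of ZBTB24 and ZBTB37 were 0.30 and 0.26, above 0. The cause of these changes was not tested, except that leaving out an array leaves fewer samples. ZBTB42 kept its call in all 19 alternatives with limma and ZBTB26 in 19 of 20 after heat shock, losing it with that mean. The filter on dim probe sets left ZBTB42 out, so ZBTB42 was not tested under that alternative. In the nsEP comparison 0 members were called under each alternative. Of 2404 alternative values of ratios not called, 51 gained a call and 195 had the other sign.

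Same-numbered samples correlated between -0.16 and 0.21 in their deviations from group means, and samples of different numbers between -0.26 and 0.24. The pairs of replicate 2 were all above 0, at 0.21, 0.17 and 0.13. Whether same-numbered samples share a batch cannot be told from these values and was not tested. With the replicate number as a block 8 members were called lower after heat shock, 5 were higher in nsEP than in heat shock, and 0 were called after nsEP.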
